A study of Rattus norvegicus with 38 samples.

Results

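The comparison described here sets the blood leukocytes of rats killed 168 h after a single dose of methyl parathion against those of rats killed 24 h after the same dose. Its 7 arrays, 3 at 168 h and 4 at 24 h, were chosen by their titles out of the 38 arrays of the series. Each array measured 1 rat. The series followed the blood of rats given acetaminophen or methyl parathion over several times after dosing, on 1-colour Applied Biosystems rat arrays.

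All rats were male CDF Fisher 344 rats of about 4 months of age. The 24 h and 168 h groups received 15 mg/kg methyl parathion by intraperitoneal injection as a suspension in vegetable oil. The 4 vehicle rats of this chemical received the oil alone and are labelled as killed at 24 h, so no vehicle rats of 168 h were compared and the time since dosing cannot be told apart from age or handling. The acetaminophen rats used for 1 comparison, 4 at 24 h and 3 at 168 h, received 1200 mg/kg in the same oil. Rats of every group were killed by microwave irradiation focused on the head. Leukocytes were caught on a filter from heart blood, and globin mRNA was depleted from their RNA.

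Methyl parathion is an organophosphate insecticide. Its oxidised product binds the active site of acetylcholinesterase, so that acetylcholine persists at nerve endings and at the cholinergic receptors of other cells. Blood leukocytes carry such receptors, and blood RNA also holds transcripts of platelets and of young red cells, whose share can shift as the bone marrow releases new cells.

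A probe counted as above background at a signal-to-noise ratio of 3 or more, and was tested where this held in at least 3 arrays of the 24 h or the 168 h side. Of 26857 gene probes 9478 (35.3%) were tested, of which 2783 had exactly 1 gene symbol and named 2741 genes. Leukocyte markers were present. All 6 NK markers on the array, 7 of 8 neutrophil markers, 3 of 3 B cell markers, 4 of 6 T cell markers and 2 of 2 monocyte markers were above background in all 7 arrays. So were 3 of 4 erythroid markers (Hbb, Alas2 and Rhag), 1 of 2 platelet markers (Ppbp) and 1 of 4 hepatocyte markers (Fgb), but 0 of 4 heart muscle markers. Acetylcholinesterase itself (Ache) was above background in 2 vehicle rats, 1 rat at 24 h and none at 168 h, and butyrylcholinesterase (Bche) in 1 rat at 168 h alone, so neither was tested.

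The first rat at 24 h was the one of its group least like the 168 h rats. Its mean correlation with the other 24 h arrays was 0.928, as was that of the second 24 h rat. With the vehicle arrays its mean correlation was 0.954, the highest of its group. Leaving it out can thus be expected to shrink many differences between the times. In its array 44.1% of probes were above background, against 37.7% to 39.1% in the other 24 h arrays. Its correlation with the 168 h arrays over the tested probes was 0.884 to 0.915, while all pairs of a 24 h and a 168 h array spanned 0.884 to 0.965. It was the highest 24 h array for the erythroid and the platelet list and the lowest for the cell cycle list. Without it, Clstn3 alone of the named genes described here passed between the times, and values without it are given beside some of the results.

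Few probes separated the 2 times. Between 168 h and 24 h 10 of the 9478 probes (0.106%) passed limma's moderated test at an adjusted p under 0.05 over all tested probes, 6 higher (0.0633%) and 4 lower (0.0422%) at 168 h. The count at an unadjusted p under 0.05 was 2098 (22.1%), with 12.5% higher and 9.61% lower, and 505 probes had an adjusted p under 0.1, 61 of them between 0.05 and 0.06. Without the first 24 h rat 3 probes passed. Without the second 24 h rat 693 passed and without the third 357. Deviations of same-numbered rats of the 2 times from their group means correlated at 0.351, 0.284 and 0.115. The third 24 h rat correlated more with the second 168 h rat (0.301) than with the third. With the rat number as a block 212 probes passed, 127 higher and 85 lower at 168 h. The block also takes the fourth 24 h rat, which has no partner at 168 h, out of the contrast. Leaving that rat out without a block gave 18.

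Set against the vehicle rats in the same fit, 239 of 9479 probes (2.52%) passed at 24 h, 93 higher (0.981%) and 146 lower (1.54%). At 168 h 2256 of 9478 (23.8%) passed, 1218 of them higher (12.9%). Median centring in place of quantile scaling gave 4 higher and 214 lower at 24 h, and 145 higher and 1178 lower at 168 h. More probes differed from vehicle at 168 h than at 24 h. The vehicle rats are labelled as killed at 24 h, so at 168 h the dose cannot be told apart from age or handling. Whether the later time was a return to the untreated state was not tested. The 2 counts share the vehicle arrays, and the 24 h count ranged from 16 to 684 when single arrays were left out. Of the 10 probes that passed between 168 h and 24 h, 9 also passed between 168 h and vehicle and 0 between 24 h and vehicle. The vehicle tests reuse the arrays by which the 10 were picked, so these counts are no independent support.

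Only 3 of the 10 probes had a gene symbol: Clstn3 and Havcr1, which fell, and Agpat4, which rose. The 250 bases before the start of each are shown to identify the loci, followed by those of 3 cell cycle genes described further on. The sequences are those of RefSeq on the GRCr8 build, written 5' to 3' on the strand of the gene, and they lie at chr4:159051070-159051319 (minus strand) for Clstn3, chr10:31629528-31629777 (plus strand) for Havcr1 and chr1:51180972-51181221 (minus strand) for Agpat4. Capitals mark CCAAT on either strand (CCAAT or ATTGG), the box bound by NF-Y, of which Clstn3 has 2, Agpat4 1 and Havcr1 0.
Clstn3: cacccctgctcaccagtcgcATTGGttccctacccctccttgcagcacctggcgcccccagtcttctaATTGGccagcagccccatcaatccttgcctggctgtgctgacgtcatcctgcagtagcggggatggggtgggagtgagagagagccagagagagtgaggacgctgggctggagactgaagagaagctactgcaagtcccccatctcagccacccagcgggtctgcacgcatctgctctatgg
Havcr1: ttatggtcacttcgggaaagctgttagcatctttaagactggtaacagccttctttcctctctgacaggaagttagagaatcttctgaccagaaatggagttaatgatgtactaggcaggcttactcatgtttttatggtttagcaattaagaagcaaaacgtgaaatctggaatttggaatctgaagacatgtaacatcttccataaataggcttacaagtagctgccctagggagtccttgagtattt
Agpat4: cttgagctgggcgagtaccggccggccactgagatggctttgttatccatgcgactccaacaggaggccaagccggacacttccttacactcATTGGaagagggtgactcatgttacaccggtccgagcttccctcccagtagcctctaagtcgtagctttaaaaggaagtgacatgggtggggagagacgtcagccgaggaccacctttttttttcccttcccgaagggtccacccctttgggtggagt

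Clstn3 encodes calsyntenin-3, a cadherin family membrane protein known from synapses. Its log2 signal was 10.12, 9.40, 9.35 and 9.69 in the 24 h rats and 7.83, 8.09 and 7.89 in the 168 h rats. The vehicle rats read 9.66, 9.43, 9.55 and 10.14. All 168 h rats lay below every 24 h rat and every vehicle rat, and the 24 h and vehicle values overlapped. The probe was above background in all 4 rats at 24 h and in none at 168 h, so the signal was at least 3.25-fold higher at 24 h. A fold of this kind sets the 24 h mean against, in each 168 h array, the higher of the probe's own signal and the lowest signal that any probe above background had. Here the probe's own signal was the higher in all 3 arrays, so the bound is the ratio of the 2 group means. The fitted log2 difference was -1.70 ± 0.29 (SE; limma adjusted p = 0.0142), and -1.54 with an adjusted p of 0.0495 without the first 24 h rat. Against vehicle it was -0.06 (adjusted p = 0.947) at 24 h and -1.75 (adjusted p = 0.000161) at 168 h.

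Havcr1, also called Kim-1 or Tim-1, is a phosphatidylserine receptor of activated lymphocytes and of injured kidney tubules. It read 9.85, 9.36, 9.06 and 9.33 in the 24 h rats and 7.68, 7.15 and 6.75 in the 168 h rats. The vehicle rats, at 8.74, 8.45, 9.57 and 8.88, overlapped the 24 h rats and lay above every 168 h rat. The log2 difference between the times was -2.21 ± 0.43 (SE; limma adjusted p = 0.0333), a 4.61-fold higher signal at 24 h. The fold rests on 3 of 4 arrays above background at 24 h and none at 168 h. The 24 h mean thus includes a value not above background, so the fold is no strict minimum. The probe was no longer above background in enough arrays to be tested once the first 24 h rat was left out. Against vehicle it was lower by a log2 difference of -1.72 (adjusted p = 0.00445) at 168 h.

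Agpat4 encodes an acyltransferase that makes phosphatidic acid, a step of glycerophospholipid synthesis. Its log2 signal was 13.86, 14.29, 14.49 and 14.16 at 24 h and 14.82, 14.90 and 15.05 at 168 h, with vehicle rats at 14.24, 14.08, 14.29 and 14.20. Every 168 h rat exceeded every rat of the other 2 groups. The rise was 0.72 ± 0.15 (log2, SE; limma adjusted p = 0.0430), a 1.65-fold difference, and Agpat4 stood 0.72 above vehicle at 168 h (adjusted p = 0.00132). The difference was 0.61 with an adjusted p of 0.188 when the first 24 h rat was left out.

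The other 7 probes had no gene symbol, 5 of them higher and 2 lower at 168 h. Probe 20843584 was above background in 0 of 4 rats at 24 h and in 3 of 3 at 168 h, so its signal was at least 6.63-fold higher at 168 h (limma adjusted p = 0.0333). Probe 21715916 showed the opposite, with 4 of 4 rats above background at 24 h and 0 of 3 at 168 h, and was at least 5.09-fold higher at 24 h (adjusted p = 0.0430).

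**Figure D1:**
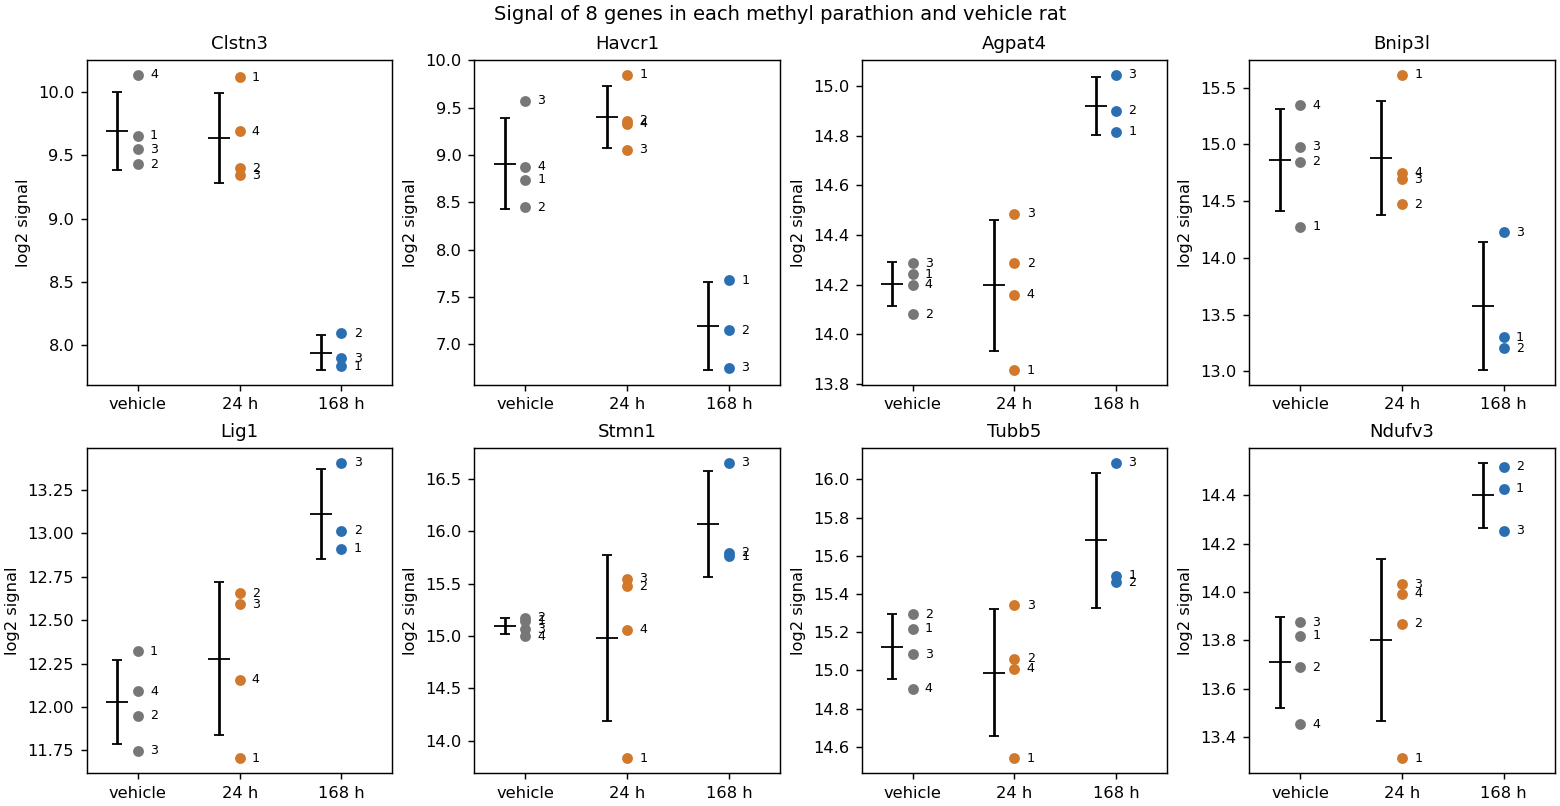
Log2 signal of 8 genes in the 4 vehicle rats, 4 rats at 24 h and 3 rats at 168 h after methyl parathion; each point is 1 rat with its number, and the bars give the mean and SD of a group. Clstn3 and Havcr1 lie lower and Agpat4 higher in all 3 rats at 168 h; the first 24 h rat has the lowest Stmn1, Tubb5, Lig1 and Ndufv3 and the highest Bnip3l of its group.

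A further 21 named genes had the smallest unadjusted p without passing the test, with adjusted p from 0.0520 to 0.0631. Of these 11 were higher at 168 h, by log2 differences of 0.50 to 1.72, and 10 were lower, by -2.05 to -0.83. In 20 of the 21 the 2 groups did not overlap, against 7.43% higher and 3.98% lower without overlap among all tested probes, but the genes were picked for their small p. Against vehicle 17 of the 21 passed at 168 h and 0 at 24 h, against 23.8% and 2.52% of all tested probes. These vehicle tests reuse the arrays by which the genes were picked, so the counts are no independent support. With the rat number as a block, 20 of the 76 named genes that were tested passed in addition to the 3 above, 11 higher and 9 lower. Of all 9478 tested probes 212 passed with the block. The 76 were picked for passing or for a small p in this same contrast, so their count is no independent support.

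Hmgb1, a chromatin protein that also acts as an alarm signal outside the cell, differed by 0.57 ± 0.13 (log2, SE; limma adjusted p = 0.0520, and 0.0427 with the block). Its signal was 15.95 to 16.50 at 24 h and 16.70 to 16.92 at 168 h, so the groups did not overlap. Without the first 24 h rat the difference was 0.47 (adjusted p = 0.256). Ehmt2, a histone H3 lysine methyltransferase, differed by 0.50 (adjusted p = 0.0520, and 0.0358 with the block). Its difference was 0.40 (adjusted p = 0.256) without that rat. The cytoskeletal linker Plec differed by 0.67 and the beta tubulin gene Tubb5 by 0.69 (adjusted p = 0.0520 for both, and 0.0398 and 0.0277 with the block). Without the first 24 h rat these were 0.60 and 0.54 (adjusted p = 0.256 for both). The glypican Gpc1, a heparan sulfate proteoglycan, was 7.26 to 9.26 at 24 h and 9.63 to 10.44 at 168 h, with a fitted difference of 1.72. It was above background in 2 of 4 rats at 24 h, so the size of the difference rests in part on values not above background. With the block it passed at an adjusted p of 0.0216, and without the first 24 h rat it differed by 1.97 (adjusted p = 0.0991). At 24 h Gpc1 stood -1.33 from vehicle (adjusted p = 0.0555) and at 168 h 0.39 from it (adjusted p = 0.517). It was among the 4 genes of the 21 that did not pass against vehicle at 168 h.

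Of the genes with lower values, Bnip3l encodes a mitochondrial receptor for autophagy that clears mitochondria from maturing red cells. Its log2 signal was 15.61, 14.47, 14.70 and 14.75 in the 24 h rats and 13.30, 13.20 and 14.23 in the 168 h rats. The groups did not overlap, with a log2 difference of -1.31 ± 0.30 (SE; limma adjusted p = 0.0520, and 0.0333 with the block). Without the first 24 h rat, which was the highest, the difference was -1.06 (adjusted p = 0.256). Sh3glb1, which also acts in autophagy, differed by -0.83 (adjusted p = 0.0520, and 0.0409 with the block), and by -0.66 (adjusted p = 0.256) without that rat.

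Gk, the glycerol kinase gene, read 10.79, 10.41, 10.28 and 11.03 at 24 h and 7.40, 9.41 and 9.54 at 168 h. The first 168 h rat was far below the other two, and all 3 lay below the 24 h rats. The difference was -1.84 ± 0.42 (log2, SE; limma adjusted p = 0.0520, and 0.0398 with the block), and -1.79 (adjusted p = 0.188) without the first 24 h rat. Emb, which escorts monocarboxylate transporters to the membrane, differed by -1.17 (adjusted p = 0.0520, and 0.0487 with the block). Its difference was -0.91 (adjusted p = 0.262) without that rat. Krt8, a keratin of simple epithelia, was not above background in any 168 h rat and was at least 3.80-fold higher at 24 h without passing the test (adjusted p = 0.0520).

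Genes of the cell cycle lay mostly higher at 168 h. Of 25 tested members 20 had a higher mean at 168 h, against 51.5% of all tested probes, and their median difference was 0.34 (log2), against 0.02 over all tested probes. None passed the test, and 12 were higher and 1 lower at an unadjusted p under 0.05, against 12.5% and 9.61% of all tested probes. Without overlap 7 were higher, against 7.43%. The median was 0.15 and 6 were higher at that p without the first 24 h rat, and 5 were higher and 3 lower without the third 168 h rat. Without the second 24 h rat 7 passed as higher, against 403 of all 8920 probes tested in that setting. Without the third 24 h rat 5 did, against 255 of 8825. With the block 3 passed (Cdk1, Lig1 and Stmn1), against 127 higher of all 9478 tested probes. Against vehicle 11 members passed as higher at 168 h and 1 at 24 h, against 12.9% and 0.981% of all tested probes. The medians were 0.46 and 0.11. These tests share the 168 h or 24 h arrays with the comparison of the times.

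Lig1, the ligase that joins the fragments of the lagging strand in DNA replication, read 11.70, 12.66, 12.59 and 12.16 at 24 h. At 168 h it read 12.91, 13.02 and 13.41, above every 24 h and every vehicle rat. The difference was 0.83 ± 0.21 (log2, SE; limma adjusted p = 0.0520, and 0.0385 with the block), and 0.64 (adjusted p = 0.256) without the first 24 h rat. Stmn1, a protein that takes microtubules apart, read 13.83, 15.48, 15.55 and 15.06 at 24 h and 15.76, 15.79 and 16.65 at 168 h. The first 24 h rat was lowest by far and the third 168 h rat highest. The difference was 1.09 ± 0.28 (adjusted p = 0.0553, and 0.0222 with the block), and 0.71 without the first 24 h rat.

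Cdk1, the kinase that starts mitosis, read 8.69, 10.65, 10.68 and 10.73 at 24 h and 11.15, 10.86 and 12.26 at 168 h, a difference of 1.23 (limma adjusted p = 0.0761, and 0.0333 with the block). The groups did not overlap, and the first 24 h rat was again lowest. Without it the difference was 0.74 (adjusted p = 0.397). Top2a, the topoisomerase of dividing cells, differed by 1.18 (adjusted p = 0.0902) and overlapped. The replication genes Prim1, Pold1 and Dut differed by 0.57, 0.84 and 0.56 without overlap (adjusted p = 0.0685, 0.166 and 0.136), and by 0.39, 0.74 and 0.34 without the first 24 h rat. Cdc25b, a phosphatase that activates cyclin-dependent kinases, went the other way at -0.91 (adjusted p = 0.196). Of these genes Cdk1, Top2a, Prim1, Pold1, Lig1 and Stmn1 passed against vehicle at 168 h, where Cdk1 stood 1.11 higher (adjusted p = 0.0292).

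Promoters of cell cycle genes commonly hold E2F sites and CCAAT boxes. Both strands of the 250 bases before the start were searched for TTTCCCGC, TTTCGCGC, TTTGCCGC and TTTGGCGC as E2F spellings and for CCAAT. An E2F spelling was found in 5 of the 24 tested cell cycle genes with a promoter entry (20.8%), against 1.81% of 27457 promoters, and CCAAT in 17 (70.8%), against 34.3%. Shown are the 3 members with an E2F spelling that were higher at an unadjusted p under 0.05, at chr5:151964929-151965178 (plus strand) for Stmn1, chr20:19265043-19265292 (plus strand) for Cdk1 and chr8:44629844-44630093 (minus strand) for Chek1, a checkpoint kinase of replication stress. Capitals mark both motifs on either strand.
Stmn1: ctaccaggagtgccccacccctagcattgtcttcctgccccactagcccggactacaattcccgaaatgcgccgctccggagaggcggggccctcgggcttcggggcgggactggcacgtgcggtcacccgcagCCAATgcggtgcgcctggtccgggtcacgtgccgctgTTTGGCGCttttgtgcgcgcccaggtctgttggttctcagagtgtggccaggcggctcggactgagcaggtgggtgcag
Cdk1: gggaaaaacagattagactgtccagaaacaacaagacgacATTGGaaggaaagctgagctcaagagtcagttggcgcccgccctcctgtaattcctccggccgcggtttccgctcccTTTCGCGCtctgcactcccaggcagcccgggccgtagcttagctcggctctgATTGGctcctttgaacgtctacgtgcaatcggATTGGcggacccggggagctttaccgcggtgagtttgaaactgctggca
Chek1: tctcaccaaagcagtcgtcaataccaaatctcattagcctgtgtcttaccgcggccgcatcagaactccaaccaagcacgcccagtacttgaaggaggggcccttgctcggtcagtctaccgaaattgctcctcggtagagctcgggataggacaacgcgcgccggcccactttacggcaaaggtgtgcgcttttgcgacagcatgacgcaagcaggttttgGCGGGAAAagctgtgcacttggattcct

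Chek1 read 11.19, 12.04, 11.25 and 11.75 at 24 h and 12.02, 12.04 and 12.40 at 168 h, and the groups overlapped. Its difference was 0.60 ± 0.19 (log2, SE; limma adjusted p = 0.0842). A match in these windows describes their letters and is no evidence of binding.

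Erythroid genes lay lower at 168 h. All 13 tested members had a lower mean, with a median difference of -0.84 (log2), and 8 were lower at an unadjusted p under 0.05, against 9.61% of all probes. None passed the test, and 1, Bnip3l, passed with the block, against 85 lower of all 9478 tested probes. Only 1 was lower without overlap, against 3.98% of all tested probes. Without the first 24 h rat the median was -0.67 and 5 were lower at that p, and without the second 24 h rat, the lowest of its group, 7 passed. In that last setting 693 of all 8920 tested probes passed, 290 of them lower. Without the second 168 h rat 4 were lower at that p. Hemgn, a nuclear protein of red cell precursors, read 14.21, 12.54, 13.47 and 13.78 at 24 h and 11.77, 12.06 and 12.91 at 168 h. The groups overlapped through the second 24 h rat, and the difference was -1.25 ± 0.43 (SE; limma adjusted p = 0.104). Alas2, the first enzyme of haem synthesis in red cells, differed by -1.19 (adjusted p = 0.149), the blood group gene Rhd by -1.47 (adjusted p = 0.113) and the beta globin probe Hbb by -0.58 (adjusted p = 0.163). Globin mRNA had been depleted, so the globin signal rests also on that step. In bulk blood RNA, fewer cells of a type and less RNA per cell cannot be told apart.

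Platelet genes followed the same direction. All 10 tested members had a lower mean at 168 h, with a median of -0.55 (log2). Of these 4 were lower and none higher at an unadjusted p under 0.05, against 9.61% and 12.5% of all tested probes. The median was -0.32 without the first 24 h rat, where 8 of 10 were lower and none reached that p. Without the first 168 h rat none reached it either, and 1 did with array weights, 2 after median centring and 2 without the third 168 h rat. F2rl2, a thrombin receptor of platelets, read 13.56, 12.46, 12.17 and 12.06 at 24 h and 10.48, 12.12 and 11.61 at 168 h, with a difference of -1.16 (limma adjusted p = 0.139). Nfe2, a transcription factor of platelet and red cell formation, differed by -0.64 (adjusted p = 0.157). At 24 h the list stood 0.82 above vehicle in its median and at 168 h 0.32. At either time 0 members passed, against 2.52% and 23.8% of all tested probes.

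Averaged over each list as the deviation from the vehicle mean, the erythroid score ran from -0.23 to 1.07 in the 24 h rats and from -0.70 to 0.08 in the 168 h rats. The platelet score ran from 0.48 to 1.38 at 24 h and from -0.21 to 0.58 at 168 h. The vehicle rats spanned -0.68 to 0.41 and -0.36 to 0.38. The cell cycle score was -0.24 in the first 24 h rat, 0.24 to 0.38 in the other 24 h rats and 0.29, 0.31 and 0.99 at 168 h, so the times overlapped in each of these 3 scores. Whether the shift of the erythroid and platelet scores has a part in the other differences was not tested.

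**Figure D2:**
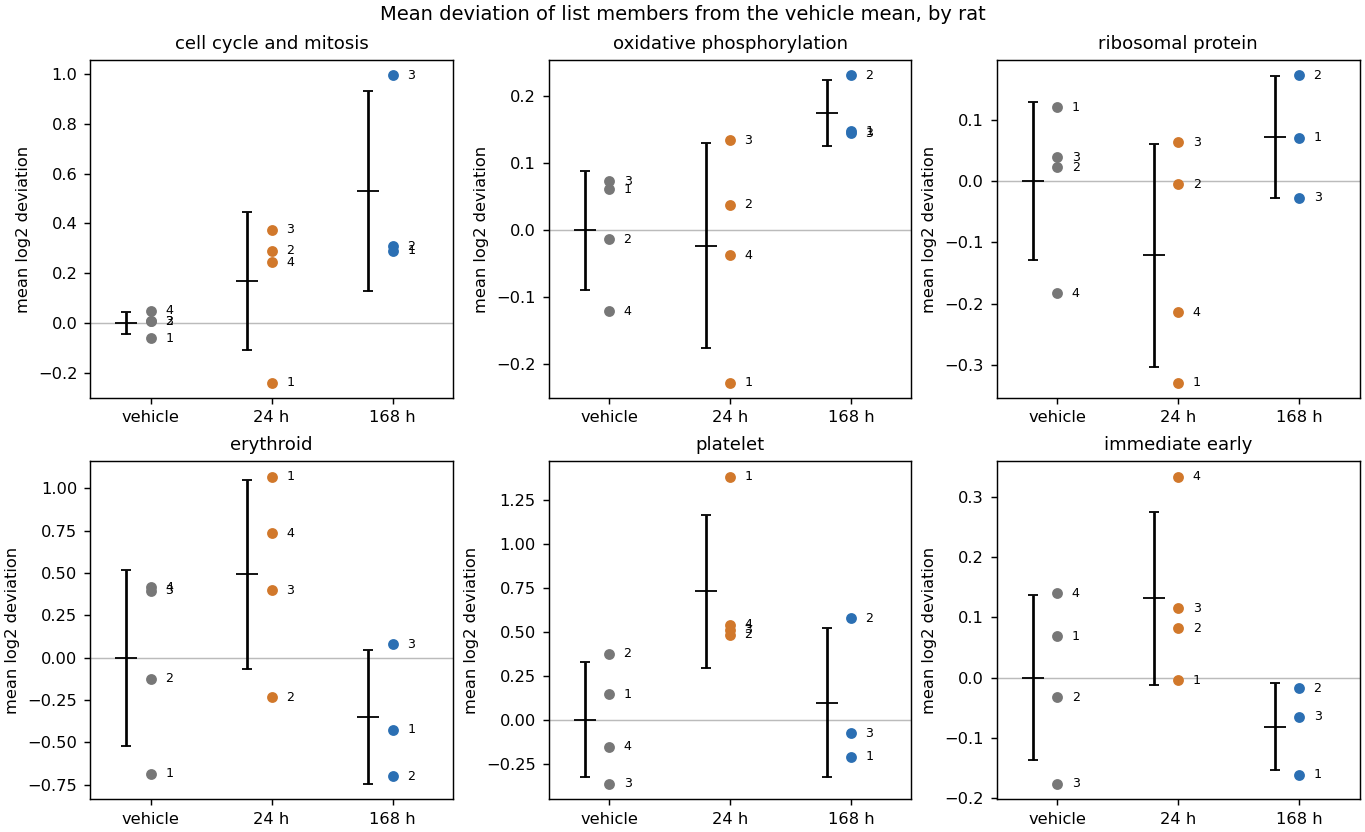
Mean log2 deviation of the tested members of 6 gene lists from the vehicle mean, in each vehicle, 24 h and 168 h rat; points are rats with their numbers and bars give the mean and SD. The first 24 h rat is the highest for erythroid (1.07) and platelet genes (1.38) and the lowest for cell cycle genes (-0.24), and the third 168 h rat is the highest for cell cycle genes (0.99).

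Genes of oxidative phosphorylation, the electron transport chain and ATP synthase of mitochondria, lay slightly higher at 168 h. Of 33 tested probes 29 had a higher mean, against 51.5% of all tested probes, and the median was 0.18 (log2). None passed the test, and 10 were higher and 2 lower at an unadjusted p under 0.05, against 12.5% and 9.61% of all tested probes. Without overlap 10 were higher, against 7.43%. Ndufv3, a subunit of complex I, read 13.31, 13.87, 14.03 and 13.99 at 24 h and 14.43, 14.52 and 14.25 at 168 h. It differed by 0.60 ± 0.16 (SE; limma adjusted p = 0.0631, and 0.0369 with the block), and by 0.43 (adjusted p = 0.307) without the first 24 h rat. Ndufa5 of the same complex differed by 0.55 (adjusted p = 0.0639, and 0.0471 with the block), and Cox5b of complex IV by 0.43 (adjusted p = 0.0652, and 0.0409 with the block), both without overlap. Leaving out the first 24 h rat, these were 0.40 and 0.34 (adjusted p = 0.307 and 0.310). With the block 4 probes of the list passed, those 3 genes and Atp5me of ATP synthase, against 212 of all 9478 tested probes. With the 7 arrays alone 6 were higher at an unadjusted p under 0.05. Against vehicle 10 passed as higher and 2 as lower at 168 h and 0 at 24 h.

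Ribosomal protein genes had a median of 0.21 (log2), and 32 of 40 probes were higher in their mean, against 51.5% of all tested probes. None passed, and 14 were higher and 0 lower at an unadjusted p under 0.05, against 12.5% and 9.61% of all tested probes. Without overlap 2 were higher, against 7.43%. With the 7 arrays alone 0 were higher at that p, with the 19 methyl parathion arrays 7, and without the first and the second 168 h rat 7 and 3. Rps15 of the small subunit differed by 0.42 (limma adjusted p = 0.0827) and Rpl24 of the large subunit by 0.43 (adjusted p = 0.105). Leaving out the first 24 h rat, the medians of the oxidative phosphorylation and ribosomal lists were 0.13 and 0.11, with 5 and 8 probes higher at that p. Many ribosomal genes have near copies in the genome, and whether a probe reads them too was not tested.

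Stress and signalling lists were mixed. Of all tested probes 9.61% were lower and 12.5% higher at an unadjusted p under 0.05. Of 29 probes of Nrf2 and oxidative stress genes 6 were lower and 1 higher at that p. Without the second 168 h rat 3 were lower, and without the second 24 h rat 4 passed as lower, against 290 of all 8920 probes tested then. Catalase (Cat) read 14.86, 13.35, 14.52 and 14.26 at 24 h and 12.44, 12.77 and 13.80 at 168 h, with a difference of -1.24 ± 0.38 (log2, SE; limma adjusted p = 0.0787), or -1.04 without the first 24 h rat. Gclm, a subunit of the first enzyme of glutathione synthesis, differed by -1.13 without overlap (adjusted p = 0.0824). The superoxide dismutase Sod1 went the other way, from 15.92 to 16.74 at 24 h to 16.94 to 17.13 at 168 h, a difference of 0.59 (adjusted p = 0.0655). Of 20 immediate early genes, those induced within minutes of a stimulus, 14 had a lower mean and 4 were lower at that p, against 1 after median centring and 7 without the second 24 h rat. Junb differed by -0.90 (adjusted p = 0.0724), and Zfp36, which destabilises cytokine mRNA, by -0.62 without overlap (adjusted p = 0.0966).

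Of 23 interferon-stimulated genes 4 were higher and 1 lower at an unadjusted p under 0.05, against 12.5% and 9.61% of all tested probes. The higher count was 1 without the first 24 h rat or with the 7 arrays alone, and 9 without the second 24 h rat. The lower one was Rsad2, the antiviral protein viperin, which read 16.29, 13.84, 14.76 and 14.67 at 24 h and 12.38, 12.97 and 13.89 at 168 h. It differed by -1.81 ± 0.47 (log2, SE; limma adjusted p = 0.0631, and 0.0427 with the block). Of the 4 higher ones Bst2, the tetherin that holds budding virus, differed most, with 13.54, 15.25, 15.33 and 14.13 at 24 h and 15.37, 15.85 and 15.87 at 168 h, a difference of 1.13 (adjusted p = 0.0855). Both genes had their extreme value in the first 24 h rat, without which Rsad2 differed by -1.34 (adjusted p = 0.307) and Bst2 by 0.79 (adjusted p = 0.406).

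Over all tested probes 12.5% were higher and 9.61% lower at an unadjusted p under 0.05. Among the lists of leukocyte classes, the B cell list had a median of -0.37 (log2) over 5 probes, with 1 higher and 0 lower at that p. The neutrophil list had a median of 0.02 over 13 with 2 lower at that p, the T cell list 0.17 over 15 with 1 each way, the NK list 0.03 over 18 with 0 either way, and the monocyte list -0.11 over 12 with 1 higher. The neutrophil chemokine receptor Cxcr2 was 9.96 to 12.59 at 24 h and 9.13 to 10.33 at 168 h (difference -1.44, limma adjusted p = 0.110). Among eosinophil, basophil and mast cell genes the median was 0.48 over 8 probes. Hdc, which makes histamine, read 8.85, 11.66, 11.78 and 8.52 at 24 h and 12.32, 12.07 and 12.05 at 168 h. The 24 h rats fell into a low and a high pair, all below the 168 h rats, and the difference was 1.95 ± 0.69 (adjusted p = 0.117).

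**Figure D3:**
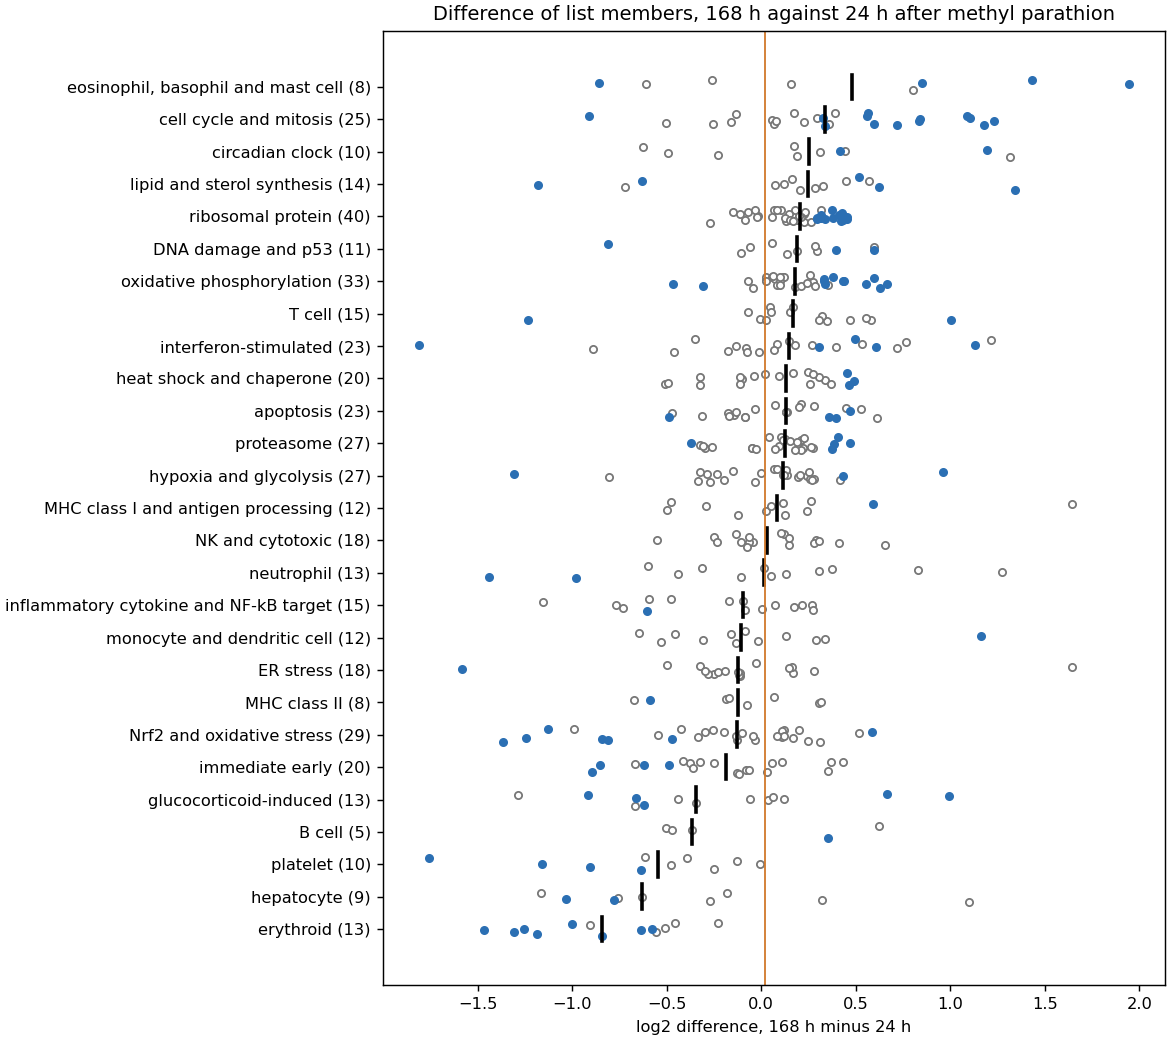
Log2 difference between 168 h and 24 h for each tested probe of the 27 gene lists with at least 5 tested probes, whose number is in parentheses; filled points have an unadjusted p under 0.05, black bars are list medians and the vertical line is the median of all 9478 tested probes (0.02). The erythroid list lies lowest (median -0.84), and no point passed the adjusted test.

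The number of probes that passed differed between settings. It was 0 with the 7 arrays alone (990 at an unadjusted p under 0.05), 0 with the 19 arrays of the methyl parathion groups (1727), 0 after median centring in place of quantile scaling (1267) and 0 with array weights (1309). None of Clstn3, Havcr1 and Agpat4 passed under those 4 settings, although their differences kept their sign.

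**Figure D4:**
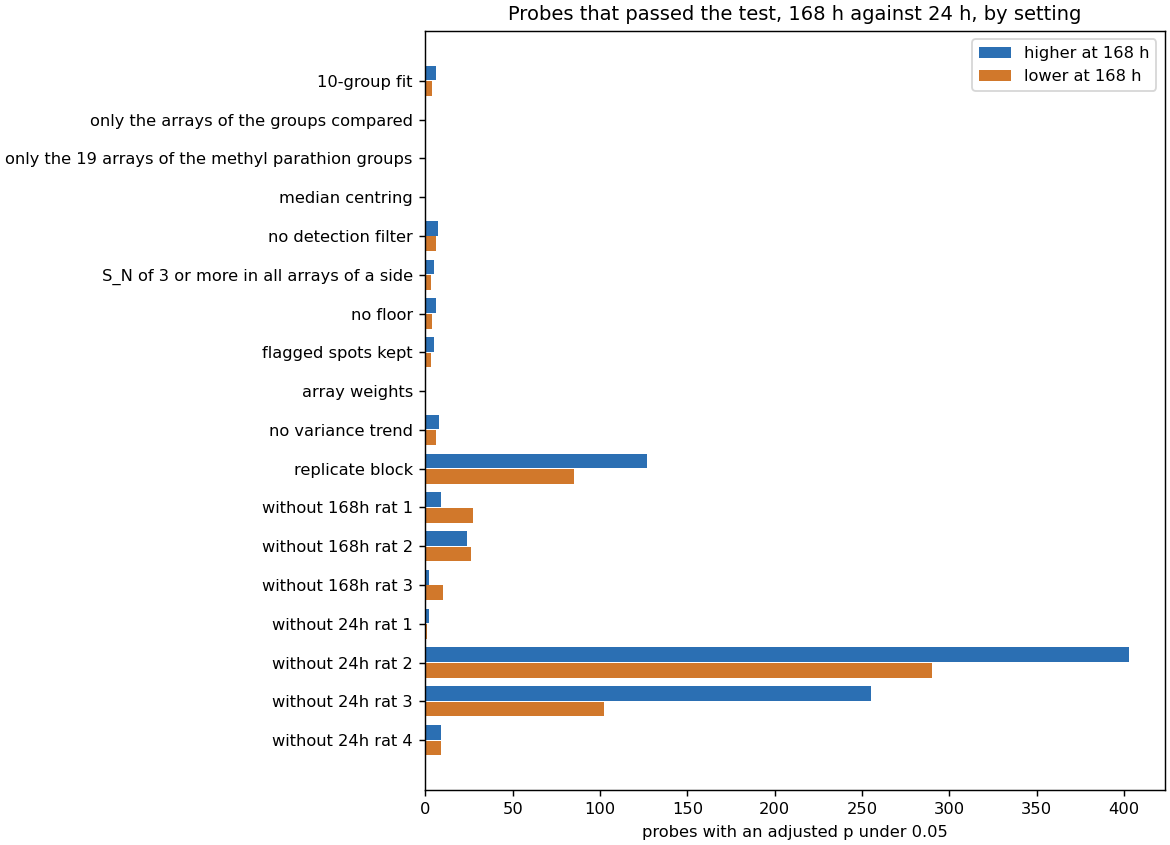
Number of probes with an adjusted p under 0.05 between 168 h and 24 h, higher and lower at 168 h, in the fit of all 10 groups and under each other setting, where S_N is the signal-to-noise ratio. The count is 10 in the fit of all groups, 0 under 4 settings, 212 with the rat number as a block and 693 without the second 24 h rat. The block also leaves out the fourth 24 h rat.

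The same contrast in acetaminophen rats shares no array with this one. In the 9478 probes the 168 h minus 24 h difference itself differed between the chemicals in 2012 (21.2%, limma adjusted p under 0.05), 11.5% above and 9.74% below 0 as methyl parathion minus acetaminophen. After median centring 1355 were above and 208 below 0. Between 168 h and 24 h after acetaminophen 4338 (45.8%) passed. Of the 76 named genes 33 differed between the chemicals. The 76 were picked by their p after methyl parathion, a part of this same difference, so their share cannot be compared with the 21.2%. In 9 of the 33 the fitted differences had opposite signs, and in 21 of the other 24 the size was greater after acetaminophen. The 9 did not include a gene that passed after methyl parathion. After acetaminophen only Casp4, Cat and RT1-DOa of the 9 passed (limma adjusted p = 4.58e-05, 0.0192 and 0.0278). Kcnh3 (0.035 ± 0.46, SE) and Or13c9 (0.027 ± 0.43) stood near 0 there, so their opposite sign does not show opposite changes. Clstn3 differed by -1.70 after methyl parathion and by -0.43 after acetaminophen (limma adjusted p of the difference 0.0249), but it was above background in none of the methyl parathion rats at 168 h, so the first value is a bound. Havcr1 was above background in 1 of 4 and 1 of 3 acetaminophen rats at 24 h and 168 h, so its difference between the chemicals rests on signal near background. For Agpat4 the differences were 0.72 and 0.33 (adjusted p = 0.191).

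Bnip3l stood at -1.31 after methyl parathion and 0.59 after acetaminophen (adjusted p of the difference 0.00167), and Cat at -1.24 and 1.09 (adjusted p = 0.0020). Stmn1 stood at 1.09 and 2.62 (adjusted p = 0.00483) and Lig1 at 0.83 and 2.12 (adjusted p = 0.00164). Ccl2, a chemokine for monocytes, stood at -1.16 after methyl parathion. After acetaminophen it was above background in 4 of 4 rats at 24 h and 0 of 3 at 168 h, and so was at least 146-fold higher at 24 h (adjusted p of the difference between the chemicals 6.35e-06). Mmp8, the neutrophil collagenase, stood at -0.98 and -4.51 (adjusted p = 6.78e-05). Neither of these 2 genes passed between 168 h and 24 h after methyl parathion (adjusted p = 0.253 and 0.177).

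**Figure D5:**
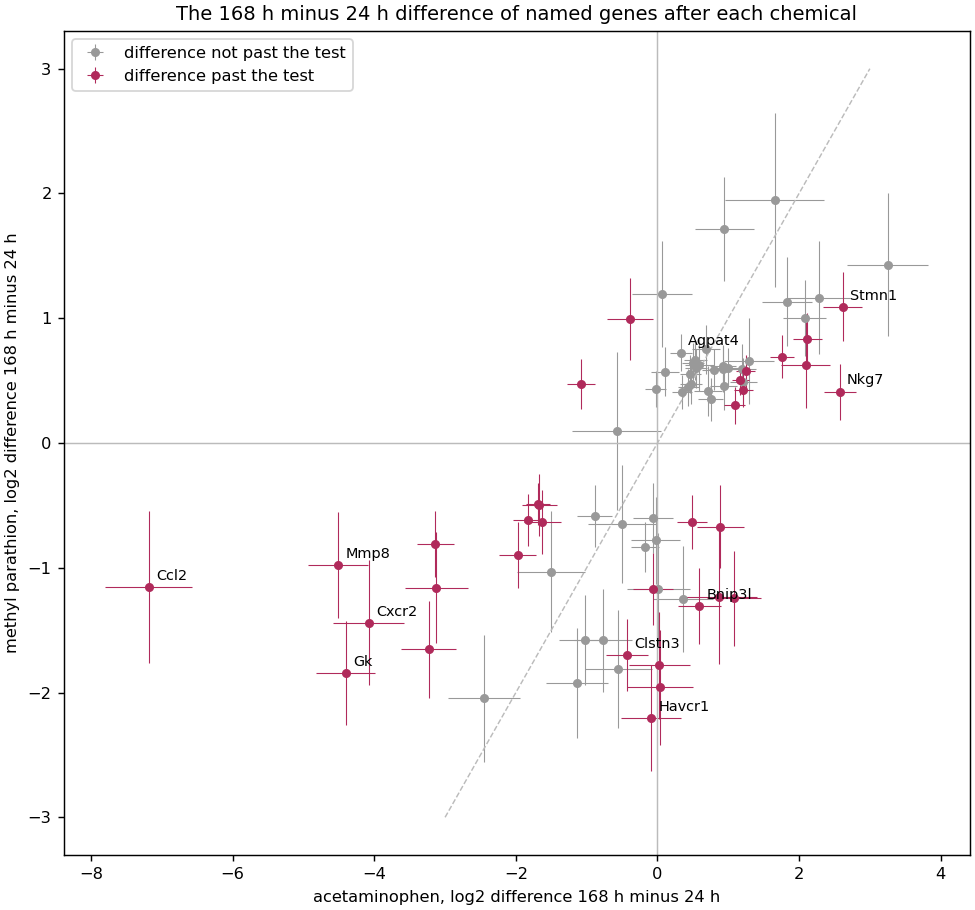
Log2 difference between 168 h and 24 h of the 76 named genes after acetaminophen (horizontal) and after methyl parathion (vertical), with SE; the dashed line marks equal differences, and coloured points are the 33 genes whose differences differed between the chemicals at an adjusted p under 0.05. On the vertical axis Clstn3, Havcr1, Krt8, Kcnh3 and Apoa2 rest on 168 h rats of which none was above background, and so do Ccl2 and Krt8 on the horizontal one. Havcr1 and Kcnh3 were above background in 1 of 4 and 1 of 3 acetaminophen rats at 24 h and 168 h. Their places near 0 on the horizontal axis thus do not show an absence of change.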

How the data were processed

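RNA of blood leukocytes was measured on 38 single-channel arrays, 1 per rat. Array by array, the authors deposited a background-subtracted intensity, a signal-to-noise score and quality flags (other, without a unit) for every probe. The log2 values in the authors' deposited series table matched quantile-normalized log2 intensities within 5e-09. Software, slides, scan dates and build of the array are not given in the sources used here, so no batch was tested. Log2 values under the 5th percentile (6.40) were set to it, and flags from 5000 up made a value missing (0.9598%). Using limma 3.58.1 (R 4.3.3), all 10 groups entered 1 model with a variance trend, 28 residual degrees of freedom, two-sided tests and Benjamini-Hochberg adjustment over all tested probes at 0.05. The fit was tested on simulated data. Precision is limited by how few arrays there are.

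Symbols came from the array's annotation, updated through 6081 Entrez IDs: 6104 probes had 1 symbol, 70 several and 20683 none. The probes described are those with 1 symbol that passed, filled to 12 in each direction by the smallest p, and the 2 members of each of 29 lists with the smallest p. Ache and Bche were added to these, and other list members were named after their values were seen. The comparison, lists and rule were chosen with earlier results of these data known.

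Replicate numbers come from the titles, which do not say what a number shares. Deviations of same-numbered 24 h and 168 h arrays from their group means correlated at 0.351, 0.284 and 0.115, so the number was also used as a block. The second 168 h rat correlated more with the third 24 h rat (0.301). With the block, a rat whose number the other group lacks is fitted exactly and drops out of the contrast. Between 168 h and 24 h this was the fourth 24 h rat. Numbers did not pair the treated with the vehicle rats. Alternatives were other array sets, scalings, filters, weights, and leaving out each rat.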

Additional observations from a re-analysis of the deposited data

Results flagged for a closer look

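In 8 of 156 looks at a named gene in a group of 4 rats, 1 rat stood apart from the other three by more than Dixon's critical value; chance gives about 5.0%. At 24 h these were the first rat for F13a1 (log2 signal 13.79) and Tnnt3 (10.59), the second for Apoa2 (7.42) and the third for Rps21 (19.89). Among the vehicle rats they were the third for Ccl9 (12.12) and Myl11 (7.28) and the fourth for Zfp36 (15.12) and Apeh (13.71).

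The 168 h minus 24 h difference differed between the chemicals in 33 of 76 named genes by the test of the difference itself (limma adjusted p under 0.05). The 76 were picked by their p after methyl parathion, which is a part of that difference. Values are the methyl parathion minus the acetaminophen difference on the log2 scale. It was below 0 for Hmgb1 (-0.67), Ehmt2 (-0.67), Tubb5 (-1.07), Lig1 (-1.28), Stmn1 (-1.52), Havcr1 (-2.12) and Clstn3 (-1.27). It was below 0 also for Bnip3l (-1.90), Kcnh3 (-1.99), Or13c9 (-1.81), Emb (-1.11), Cat (-2.33), Scd2 (-1.12), Apeh (-0.79) and Rps15 (-0.80). The lymphocyte genes Cd24 (-1.47), Lef1 (-2.10), Nkg7 (-2.16) and RT1-DOa (-1.56) lay below 0 as well. It was above 0 for the neutrophil genes Cxcr2 (2.64) and Mmp8 (3.53), the chemokine Ccl2 (6.03), and the immediate early and stress genes Junb (1.08), Zfp36 (1.21), Mcl1 (1.20) and Gadd45a (2.33). It was above 0 also for Gk (2.56), Fetub (1.58), F2rl2 (1.96), Nfe2 (0.99), Calr (1.17), Tgm2 (1.38) and Casp4 (1.55). The sizes for Havcr1, Clstn3 and Kcnh3 rest on 168 h methyl parathion rats of which none was above background, and that for Ccl2 on such acetaminophen rats. Havcr1 and Kcnh3 were also above background in only 1 of 4 and 1 of 3 acetaminophen rats at 24 h and 168 h.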

How the results depend on the processing

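Between 168 h and 24 h 10 probes passed, and 0 did with the arrays of the compared groups alone, the 19 methyl parathion arrays, median centring or array weights, and 212 with the replicate block. Leaving out single rats gave 3 to 693, with 36, 50 and 12 without 168 h rats 1, 2 and 3, and 3, 693, 357 and 18 without 24 h rats 1, 2, 3 and 4. Between 24 h and vehicle 239 passed, against 0 with the compared arrays alone, 0 with the 19 arrays, 157 without the detection filter and 850 with array weights. Single rats left out gave 16 to 684: 684, 63 and 23 without 24 h rats 1, 3 and 4, and 16 and 53 without vehicle rats 1 and 2. Between 168 h and vehicle 2256 passed, against 1323 after median centring and 1289 to 2076 with single rats left out, the lowest without the second 168 h rat. The count for the difference between the chemicals stayed within 1.5 times of 2012 under every setting run, from 1391 to 2394. The causes were not tested. Median centring moved the median of all tested probes to 0.05 between 168 h and 24 h, to -0.27 between 24 h and vehicle, to -0.23 between 168 h and vehicle and to 0.37 for the difference between the chemicals. The split of higher and lower calls moved with it. With the replicate block 294 probes passed between 24 h and vehicle, 1793 between 168 h and vehicle and 2159 for the difference between the chemicals. With single rats left out Lef1 ranged from -2.11 to 0.19 and Myl11 from -0.37 to 0.98, neither of which passed the test. The sign turned for Lef1 without 168 h rat 2 (0.19), and for Myl11 without 168 h rat 2 or 3 (-0.37 and -0.32) or 24 h rat 2 (-0.37). Over the named genes 1148 results kept side and direction, 111 newly passed and 17 no longer passed. Values near background are limited by signal over noise: Clstn3, Havcr1, Krt8, Kcnh3 (at least 3.89-fold higher at 24 h) and Apoa2 (2.04-fold) have only a bound at 168 h. For Havcr1 and Apoa2 only 3 of 4 rats were above background at 24 h, so their folds are no strict minimum.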

Other observations

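Genes of energy and lipid metabolism and of the clock were not described above. Of 27 probes of hypoxia and glycolysis genes 16 had a higher mean at 168 h, with 2 higher and 1 lower at an unadjusted p under 0.05. Over all tested probes 12.5% were higher and 9.61% lower at that p. Gpi, the second enzyme of glycolysis, was 15.45 to 16.36 at 24 h and 16.27 to 16.43 at 168 h (difference 0.43, limma adjusted p = 0.0948, and 0.29 without the first 24 h rat). Of 14 lipid and sterol synthesis probes 3 were higher and 2 lower at that p. Fasn, the fatty acid synthase, differed by 0.62 (adjusted p = 0.0959) and the desaturase Scd2 by -0.63 (adjusted p = 0.104), both without overlap. Scd2 read 11.09, 11.16 and 11.15 at 168 h and stood -1.20 from vehicle (adjusted p = 0.000318). Nr1d2, a repressor of the circadian clock, was 8.59 to 9.42 at 24 h and 9.59 to 10.84 at 168 h (difference 1.20, adjusted p = 0.115), and the hour of killing is not among the values used here.

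Asns, the asparagine synthetase induced by amino acid shortage, read 13.35, 11.18, 11.93 and 12.59 at 24 h and 10.06, 10.32 and 11.66 at 168 h (difference -1.58, limma adjusted p = 0.0625). Tnnt3, a troponin of fast skeletal muscle, read 10.59, 11.54, 11.39 and 11.48 at 24 h and 11.74, 11.93 and 11.79 at 168 h. The difference was 0.57 (adjusted p = 0.107), or 0.35 without the first 24 h rat. It stood 1.18 above vehicle at 168 h (adjusted p = 0.000173). Of 13 glucocorticoid-induced probes 2 were higher and 3 lower at an unadjusted p under 0.05 between the times, and the list median moved from -0.35 to 0.02 without the fourth 24 h rat.

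Over all tested probes the median was 0.02, with 12.5% higher and 9.61% lower at an unadjusted p under 0.05. The remaining lists are given by their median and their members higher and lower at that p. These were -0.12, 0 and 1 of 8 for MHC class II, 0.08, 1 and 0 of 12 for MHC class I and antigen processing, and -0.10, 0 and 1 of 15 for inflammatory cytokines. They were 0.12, 4 and 1 of 27 for the proteasome, 0.13, 3 and 0 of 20 for heat shock, -0.12, 0 and 1 of 18 for endoplasmic reticulum stress, and 0.13, 3 and 1 of 23 for apoptosis. They were 0.19, 2 and 1 of 11 for DNA damage, -0.22, 1 and 1 of 4 for cholinergic targets, 0.25, 2 and 0 of 10 for the clock, and 0.33, 1 and 0 of 2 for heart and skeletal muscle. Hepatocyte genes had a median of -0.63 over 9 probes, with 0 higher and 2 lower, but the block gave 2 higher and 0 lower. Their median was -0.16 without the first 24 h rat (1 higher, 0 lower) and -0.05 without the fourth (2 higher, 0 lower).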
